A study of Mus musculus with 2 samples.

Results

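In mouse liver under endoplasmic reticulum stress, 257 of 14157 CHOP peaks (1.82%) lay at the start of a long noncoding RNA gene and away from every protein-coding start. A peak was counted here when its summit, the highest point of the read pileup, was within 1 kb of a transcript start of a gene of 6 noncoding types and more than 1 kb from each start of a protein-coding transcript of a protein-coding gene. The types were lincRNA (between genes), antisense, sense_intronic, sense_overlapping, bidirectional_promoter_lncRNA and processed_transcript, as given by the GENCODE M21 annotation of the mm10 genome. Neither fold, nor reads, nor sequence entered the choice. The study sequenced chromatin from livers of wild-type mice given the glycosylation inhibitor tunicamycin intraperitoneally at 1 mg/kg body weight and taken after 8 h. A pool of 3 such mice gave 1 library immunoprecipitated with a monoclonal antibody to CHOP, and 1 input library came from the same treatment. Values of the input library were not used here, and no untreated, CHOP-deficient or replicate immunoprecipitate entered the comparisons, so nothing below measures a change on treatment or the spread between mice. Whole liver was used, and peaks cannot be assigned to hepatocytes or to other cells of the organ.

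CHOP, encoded by Ddit3, is a leucine-zipper protein of the C/EBP family that accumulates when misfolded proteins load the endoplasmic reticulum. It binds DNA as a dimer with other C/EBP proteins or with ATF4, and the joint C/EBP-ATF sites of such dimers are also called amino acid response elements. Long noncoding RNAs are transcribed and spliced much like messengers but are not translated into a known protein. Some act in the nucleus on chromatin or on nuclear bodies, some carry microRNAs or small nucleolar RNAs in their introns, and for many no function is known.

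The sequence shown first is the C/EBP-ATF composite element, known from other studies as a site of CHOP with ATF4, searched as TGATGNAA on both strands within 50 bp of each summit. It was found in 19 of the 257 peaks. The element and 6 bases on either side are shown for the 9 of highest fold, read 5′ to 3′ on the strand that carries it, with the element in capitals, from the GRCm38.p6 (mm10) genome.
Trp53cor1 (chr17:29079027-29079034, + strand, 36.2-fold peak): gggagaTGATGCAAccgaag
2410080I02Rik (chr19:23135032-23135039, + strand, 23.6-fold): aagagaTGATGAAAcgtgag
Alkbh3os1 (chr2:93979869-93979876, + strand, 21.7-fold): tttttaTGATGCAAaaaggg
1810008I18Rik (chr7:65803013-65803020, + strand, 20.1-fold): attagaTGATGCAAcggggc
2310040G24Rik (chr6:86487853-86487860, - strand, 14.5-fold): ggcctgTGATGCAAgaccag
AC122818.2 (chr17:87571759-87571766, - strand, 11.2-fold): tgccggTGATGCAAtcaggc
1600002D24Rik (chr16:95898053-95898060, - strand, 10.5-fold): agaaggTGATGAAAtcctgt
Lockd (chr6:134928331-134928338, - strand, 10.5-fold): cgcaaaTGATGCAAtccccc
1810059H22Rik (chr5:148956429-148956436, + strand, 9.75-fold): ttctccTGATGCAAttgtca
Of the 19 elements, 8 read TGATGCAA, 7 read TGATGAAA, 3 read TGATGTAA and 1 read TGATGGAA. TGATGCAA, the form best known from amino acid response elements, made up 42.1% of the elements here and 46.8% of the 938 found around all summits. The centre of the element lay a median of 14.5 bp from the summit, 11 of 19 lay within 20 bp, and the farthest lay 44.5 bp away. The TGATGAAA match at 2410006H16Rik was inside the small nucleolar RNA Snord49b (chr11:62603079-62603150), whose class carries a similar conserved box, so 18 matches (7.0% of the peaks) lay outside annotated small RNAs.

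Most peaks, including the strongest, held no such element. The summit base and 50 bases on either side are shown for 4 peaks that span the range of sequence, on the + strand. Capitals mark TGATGNAA or the looser C/EBP pattern TTNNGCAA, and other motifs are left in lower case. The first is the peak of highest fold and holds no searched C/EBP, ATF or AP-1 motif, the second has the composite element beside Cdkn1a, the third has it beside Klf9, and the fourth has TTNNGCAA at the start of a microRNA host.
1700028E10Rik (chr5:151368486-151368586, 119.3-fold): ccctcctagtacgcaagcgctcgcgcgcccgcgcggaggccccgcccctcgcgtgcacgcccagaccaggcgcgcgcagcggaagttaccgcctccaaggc
Trp53cor1 (chr17:29079000-29079100, 36.2-fold): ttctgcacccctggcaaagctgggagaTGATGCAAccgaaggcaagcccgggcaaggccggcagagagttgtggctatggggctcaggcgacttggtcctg
2410080I02Rik (chr19:23134971-23135071, 23.6-fold): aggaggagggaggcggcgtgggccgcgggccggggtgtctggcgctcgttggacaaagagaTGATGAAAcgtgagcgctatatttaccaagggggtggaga
Dleu2 (chr14:61682252-61682352, 29.0-fold): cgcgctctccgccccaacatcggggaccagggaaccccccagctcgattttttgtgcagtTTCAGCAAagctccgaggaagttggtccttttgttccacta

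The cyclic AMP response element TGACGTCA, bound by CREB and ATF proteins, was in 3 of the 257 windows (1.17%, Wilson interval 0.398 to 3.38%). The shares of 0.516% over all summit windows and 0.856% at coding starts lay within that interval, and 0.211% at neither start lay below it. The element was thus not clearly more frequent here than over all peaks or at coding starts. It is shown in capitals with 6 bases on either side.
Snhg15 (chr11:6528841-6528848, + strand, 8.12-fold): agacacTGACGTCAgcgccc
Frmd8os and Neat1 (chr19:5846016-5846023, + strand, 7.50-fold): gcagggTGACGTCAgtgcgg
Gm14321 (chr2:167777474-167777481, + strand, 5.58-fold): cagctgTGACGTCAgagccg
These were a small nucleolar RNA host gene, the shared region between the antisense gene Frmd8os and Neat1 (the scaffold RNA of nuclear paraspeckles), and a lincRNA whose nearest protein-coding start, 88603 bp away, was that of Cebpb, which encodes a partner of CHOP. All 3 peaks were below 10-fold and rested on 9 to 12 reads at the summit. No window 500 bp from the members' summits held the element, and TGACGTCA was in 0.495% of the 14946 windows of the same length centred on noncoding starts.

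The 257 peaks lay near 258 of 10150 annotated noncoding genes of these types, which is 2.54% of them (95% Wilson interval 2.25 to 2.87%). A wider count, without the condition on coding starts, gave 1048 peaks within 1 kb of a noncoding start and 963 genes (9.49%), and 791 of those 1048 peaks were also within 1 kb of a coding start. For comparison, 6100 of 21866 protein-coding genes (27.9%) had a summit within 1 kb. The stretch of genome that fits the rule is 19.7 Mb (0.743% of it) and held 13.1 peaks per Mb (95% interval 11.5 to 14.8). The 64.6 Mb within 1 kb of a coding start held 97.7 peaks per Mb, and the rest of the genome held 2.96 per Mb. Noncoding starts away from coding starts therefore stood between coding starts and the remaining genome in peak density.

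The share of genes with such a peak was highest among processed_transcript genes. Of 790 processed_transcript genes, a class of spliced noncoding genes that includes many named hosts of small RNAs, 42 had a peak (5.32%, 95% interval 3.96 to 7.11%). The shares were 2.46% for lincRNA genes (144 of 5854), 2.23% for antisense genes (66 of 2959) and 1.83% for sense_intronic genes (6 of 327). None of 30 sense_overlapping genes and none of 190 bidirectional_promoter_lncRNA genes had one. The last type is by definition transcribed away from a nearby coding start, and 95 of its 190 genes (50%) had a summit within 1 kb when the coding condition was dropped. Assigned to the nearest start, 140 peaks belonged to lincRNA genes, 69 to antisense, 44 to processed_transcript and 4 to sense_intronic genes. Most peaks (239) were near 1 such gene and 18 were near several, and 16 genes had more than 1 peak. Zmiz1os1, antisense to Zmiz1, had 3, of 5.26-, 5.21- and 4.87-fold.

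The distance to a noncoding start chose the members, so its values are a description. The median distance to the nearest noncoding start was 250.0 bp (95% interval of the median 218.0 to 313.0), with 65 peaks within 100 bp, 64 between 100 and 250 bp, 52 between 250 and 500 bp and 76 in the outer 500 bp. The median signed position was -33 bp, with 137 summits upstream (53.3%) and 120 at or downstream of the start. Relative to the noncoding genes' own structure, 72 summits were in an exon, 67 in an intron and 118 outside. Relative to protein-coding genes, 183 were outside any gene, 65 were inside a gene on the strand opposite to the noncoding RNA and 9 were inside a gene on its strand.

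**Figure D1:**
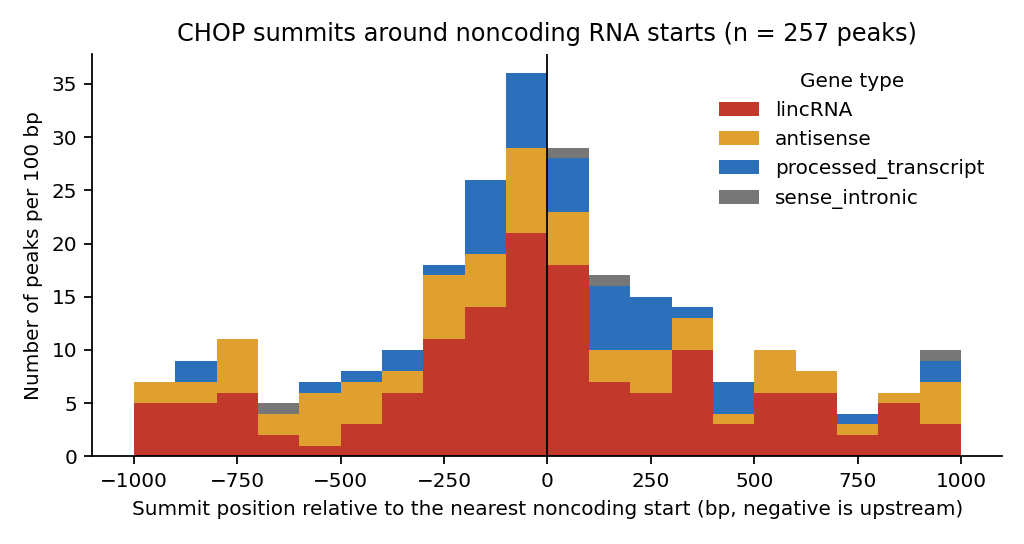
Number of CHOP peaks per 100 bp (vertical axis) by position of the summit relative to the nearest noncoding RNA start in bp (horizontal axis, negative is upstream), with bar segments coloured by gene type. Of the 257 summits, 65 are within 100 bp of the start and 76 more than 500 bp away.

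The fold of these peaks was close to that of the whole list. Fold enrichment is the authors' own peak-caller value, the read pileup at the summit over the background, each with 1 read added. The background was a local one, or the genome-wide value in 74 members (28.8%). Over that fixed value fold moves in steps of whole reads. The members' median was 6.75-fold (95% interval 6.28 to 7.21), with quartiles of 5.25 and 9.75 and a range of 3.45 to 119.3. The medians were 6.75 over all peaks, 6.65 at coding starts and 6.75 at neither kind of start. The median pileups behind these folds differed more, at 11 reads in members and over all peaks, 13 at coding starts and 9 at neither. At least 10-fold was reached by 58 members (22.6%, 95% Wilson interval 17.9 to 28.1%), beside 22.5% of all peaks, so the share was at the level of the whole list. At least the 90th percentile of all peaks, 15.4-fold, was reached by 25 members (9.73%), and the 99th, 48.8-fold, by 3.

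Few reads stood behind most of these values. The median pileup at a summit was 11 reads (4 to 209), 123 peaks had 10 reads or fewer, and 41 had 20 or more. An exact 95% Poisson interval on the pileup, converted to fold over an unchanged background, stayed at or above 5-fold in 77 of the 257 peaks. Ranks among the weaker peaks are therefore loose, while those of the 20 strongest, none below a lower bound of 12.3-fold, are firmer. These intervals cover counting error only.

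In base composition the peaks fell between the other classes and were mixed. The sequence within 50 bp of the summit had a median GC content of 59.4% (95% interval 56.4 to 62.4%), against 74.3% at coding starts, 46.5% at neither start and 56.4% over all peaks. Splitting on CpG density within 250 bp of the summit made the mixture visible. In 122 peaks the ratio of observed to expected CpG was 0.6 or more, as in CpG islands, and their median GC content was 74.3%, equal to that of peaks at coding starts. In the other 135 the median GC content was 48.5%, near that of peaks at neither start. Of all 14946 noncoding starts, taken with 250 bp on either side, 17.9% had such a ratio. Peaks closest to the start were the richest in GC, with a median of 71.3% within 100 bp and 51.0% beyond 500 bp. By gene type the median was 72.8% for processed_transcript, 59.4% for antisense and 55.9% for lincRNA genes. The median fold did not follow composition, at 6.57 in the CpG-rich and 6.75 in the CpG-poor peaks.

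**Figure D2:**
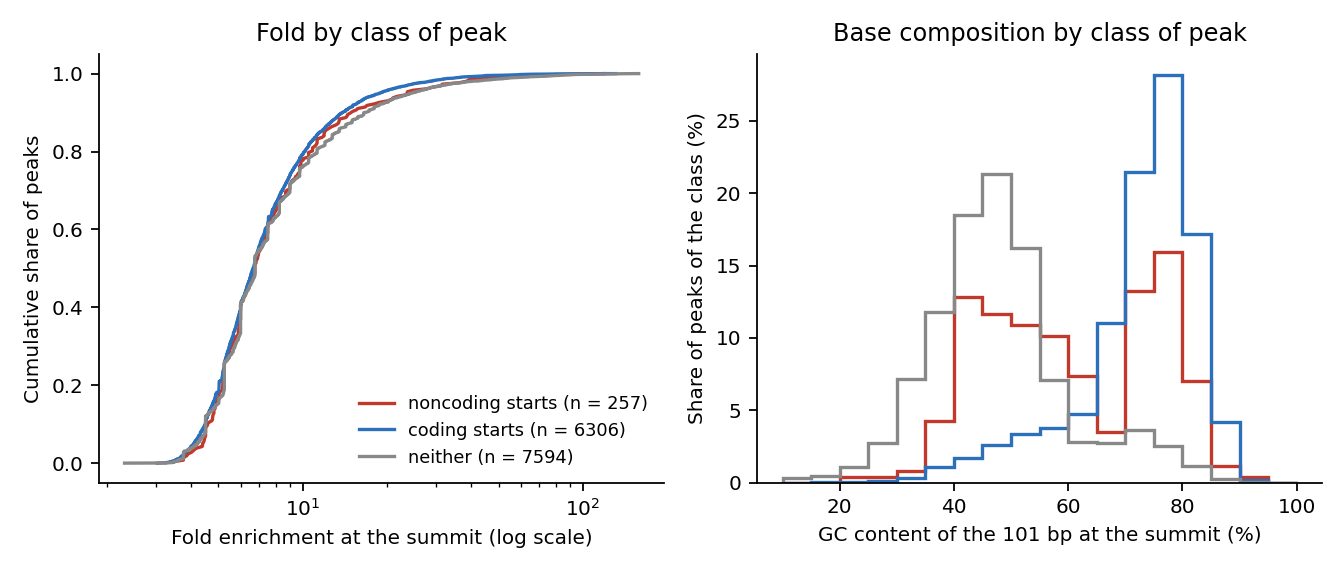
Left, cumulative share of peaks (vertical axis) by fold enrichment at the summit (horizontal axis, log scale) for 257 peaks at noncoding starts, 6306 at coding starts and 7594 at neither. Right, share of each class in percent by GC content within 50 bp of the summit. The fold curves nearly overlap, with medians of 6.75, 6.65 and 6.75, while the GC content of the noncoding class has a low and a high group and a median of 59.4%.

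The strongest peak was at the divergent genes 1700028E10Rik and D730045B01Rik on chromosome 5. It spanned 938 bp (chr5:151368049-151368986), rested on 205 reads and reached 119.3-fold (95% interval 103.6 to 136.8). It ranked 9 among all 14157 peaks, with its summit 139 bp upstream of the 1700028E10Rik start and in an exon of the noncoding locus. The nearest protein-coding start, that of Gm42906, was 59627 bp away. The summit was nevertheless inside an intron of a protein-coding gene on the strand opposite to the noncoding RNA. No function is assigned here to either RNA. With a GC content of 76.2% its window resembled a CpG island, and the only searched motif in it was the GC box GGGCGG.

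Trp53cor1, the p53-induced RNA known as lincRNA-p21, had the seventh-highest peak, at 36.2-fold (27.2 to 47.3) and 52 reads. The summit was 129 bp downstream of its start, in an exon, with the centre of the composite element 19.5 bp from it. The neighbouring coding gene, transcribed in the divergent direction from a start 11929 bp away, is Cdkn1a, which encodes the cell cycle inhibitor p21. Cdkn1a had a promoter peak of its own of 5.83-fold, so the noncoding start carried the higher fold of the pair.

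Of the other members of the 20 strongest, 5 are given with their nearest coding gene. Gm9530 had a 38.5-fold peak (31.3 to 46.9, 96 reads) 70 bp upstream of its start and 16300 bp from Ier5, an immediate early gene. The 23.6-fold peak of 2410080I02Rik (16.4 to 33.1), with a composite element, was 6205 bp from Klf9, a Krüppel-like transcription factor, whose own promoter peak was 6.34-fold. Gm34983 and Gm35035 shared an 18.7-fold peak (12.3 to 27.5) 196523 bp from the start of Dusp6, a phosphatase that inactivates ERK. The Dusp6 promoter had a peak of 22.50-fold. A930006K02Rik had a 21.0-fold peak (14.1 to 30.2) 20160 bp from Ifnar1, a subunit of the type I interferon receptor, which had none. The 20.1-fold peak of 1810008I18Rik (13.5 to 28.9), with a composite element, was 58762 bp from Pcsk6, a proprotein convertase with a 9.32-fold promoter peak.

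The remaining members of the 20 strongest were mostly at unnamed genes. Gm29264 reached 62.3-fold (50 to 76.8) at 16791 bp from Alox5ap, with its summit in repeat-masked sequence and inside an annotated microRNA gene, Gm24105. Gm47134 reached 59.2-fold, Gm15564, antisense to Kpna1, 46.2-fold, Gm47416 39.3-fold and BC037032 31.5-fold. Dleu2, described below, reached 29.0-fold. Gm8066 had a 31.1-fold peak that is at a coding start in another annotation, as given below. D130017N08Rik reached 27.7-fold, 1700018L02Rik, antisense to the adenylate kinase gene Ak3, 24.7-fold, and Bloodlinc, an RNA of developing red cells beside Slc4a1, 23.6-fold. Below these stood 4930543K20Rik at 23.2-fold, Alkbh3os1 at 21.7-fold and E330011O21Rik at 20.8-fold. The strongest peaks of the sense_intronic type were lower, with A530041M06Rik, inside Lrig2, at 12.7-fold and C230066G23Rik, inside Lrrc8c, at 11.9-fold. Gm43773 (6.51-fold) and Gm45823 (5.25-fold) were the other 2 of that type.

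Peak shape split the strong peaks into kinds. In the whole list many strong peaks had a width of 290 to 340 bp, and 34 members (13.2%, 95% interval 9.62 to 17.9%) had such a compact width, against 17.3% of all peaks, 11.1% at coding starts and 22.6% at neither. Among members of at least 10-fold 17 of 58 were compact (29.3%, 19.2 to 42.0%), and 13 of these 17 summits were in repeat-masked sequence. The compact share at that fold was 34.0% over all peaks (790 of 1083 masked), 7.27% at coding starts and 53.4% at neither. Below 10-fold it was 8.54% in members, 12.5% over all peaks, 12.1% at coding starts and 12.9% at neither. The higher compact share among strong peaks was thus shared with peaks at neither start and was not seen at coding starts. Of the 41 other members of at least 10-fold, 4 had a masked summit. The compact strong peaks sat farther from the noncoding start, at a median of 359.0 bp against 139.0 bp, and had a CpG ratio of 0.18 against 0.59. The composite element was in 1 of the 17 and in 7 of the 41 (17.1%, 8.53 to 31.3%). Gm47134, Gm15564, Gm47416, BC037032, D130017N08Rik, Bloodlinc, 4930543K20Rik and Alkbh3os1 were compact, which makes 8 of the 20 strongest peaks. What makes a peak compact was not tested. Without compact peaks the members' median fold was 6.52.

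At the other extreme the 3 widest peaks were at Mir17hg (1557 bp), Dleu2 (1519 bp) and Sp3os (1360 bp). The 5 peaks of 1 kb or more had a median GC content of 81.2%. The most reads were at AC166748.2, with 209 reads but 12.2-fold, because its local background was 16.2 reads. Gm42418, named here after its values were seen, had 92 reads over a background of 18.5 reads and a fold of 4.77. All other members had a background below 5 reads.

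**Figure D3:**
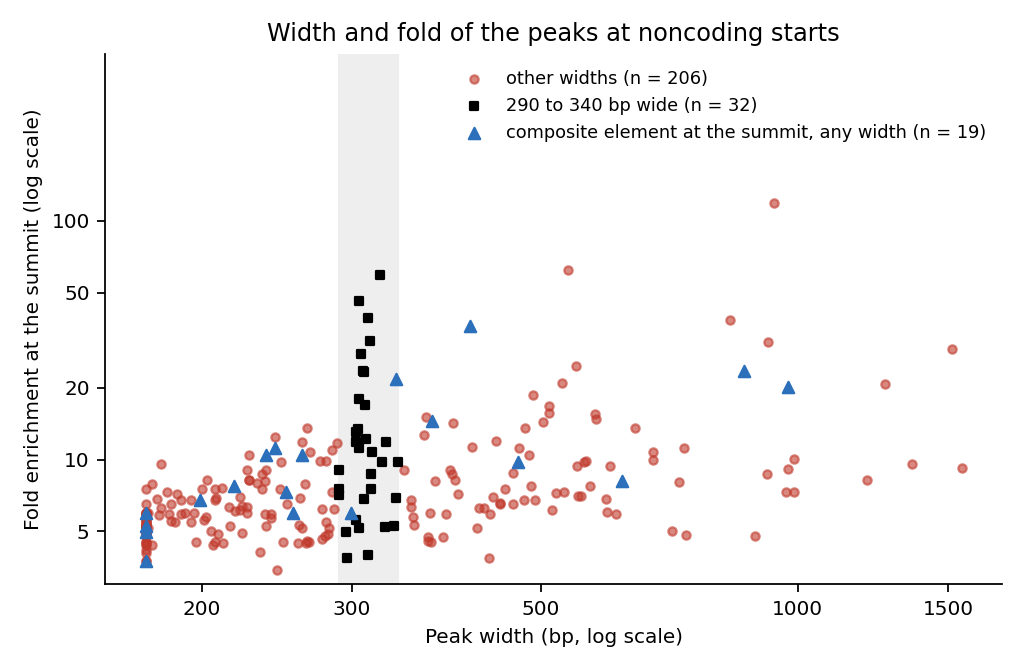
Fold enrichment at the summit (vertical axis, log scale) by peak width in bp (horizontal axis, log scale) for the 257 peaks, with the range of 290 to 340 bp shaded. Squares are the compact peaks without a composite element, which rise to 59.2-fold within the shaded band, and triangles are the 19 peaks with a composite element, the highest at 36.2-fold and mostly outside the band.

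The composite element TGATGNAA was within 50 bp of the summit in 7.39% of members (19 of 257, 95% Wilson interval 4.78 to 11.3%) and in 1.95% of windows 500 bp from the same summits (5 of 257). The share was 6.28% over all peaks, 1.89% at coding starts and 9.89% at neither start. It was in 1.27% of the 14946 windows of the same length centred on noncoding starts and in 0.975% of the 54340 on coding starts. The element, which holds no CpG itself, was more frequent away from CpG-rich sequence. It was in 15 of 135 CpG-poor members (11.1%) and in 4 of 122 CpG-rich members (3.28%). Among members of at least 10-fold it was in 8 of 58 (13.8%, 7.16 to 24.9%), and below 10-fold in 11 of 199 (5.53%, 3.11 to 9.63%). These intervals overlap.

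Other C/EBP and AP-1 patterns showed a smaller or no excess over the windows 500 bp away. The C/EBP palindrome TTGCGCAA was in 0 of 257 windows, which allows a share of up to 1.17% (3 counts of 257), and in 19 of all 14157 windows (0.134%). It was in 0.0468% of noncoding start windows. The looser pattern TTNNGCAA, of which the palindrome is a form, was in 13 members (5.06%, 2.98 to 8.46%), in 10 of the windows 500 bp away (3.89%), in 4.44% of all peaks and in 3.41% of noncoding start windows. Its 4 strongest carriers were Dleu2, 1700018L02Rik, 1810008I18Rik and Gm34983. The AP-1 site TGACTCA, bound by FOS and JUN dimers, was in 6 members (2.33%), in 8 of the windows 500 bp away (3.11%), in 2.03% of all peaks and in 1.75% of noncoding start windows. Its strongest carriers were Alkbh3os1 (21.7-fold), which also had a composite element, Gm44202 (9.62-fold), Gm35865 (8.25-fold) and B930059L03Rik (6.54-fold).

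Among motifs of GC-rich promoters the GC box was the most frequent. The GC box GGGCGG, bound by SP and KLF proteins, was in 56 members (21.8%, 17.2 to 27.2%), in 7.0% of the windows 500 bp away, in 23.4% of all peaks, in 45.4% of those at coding starts and in 8.51% of noncoding start windows. It was in 40.2% of CpG-rich and 5.19% of CpG-poor members, the reverse of the composite element. GGGCGG holds a CpG and TGATGNAA holds none, so the split itself bears on both contrasts. No composition-matched share is given. The E-box CACGTG, bound by factors such as USF and MYC, was in 12 members (4.67%, 2.69 to 7.98%) and in 1 window 500 bp away (0.389%). It was in 3.37% of all peaks, in 5.41% of those at coding starts and in 2.16% of noncoding start windows. Its strongest carriers were 4930543K20Rik (23.2-fold) and Lncpint (10.8-fold). The 4930543K20Rik window is mostly a short tandem repeat, with the E-box near its edge. Other motifs of such promoters were not frequent. The CCAAT box, searched as CCAAT, was in 22 members (8.56%), in 10.5% of the windows 500 bp away, in 9.17% of all peaks and in 12.8% of noncoding start windows. The ETS site CCGGAAG was in 2 members (0.778%), in 2.29% of all peaks, in 4.12% of those at coding starts and in 2.36% of noncoding start windows. The NRF1 site GCGCATGCG was in 0 of 257, against 0.304% of all peaks and 0.308% of noncoding start windows. A match describes the letters in these windows and is not evidence that a factor was bound there.

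**Figure D4:**
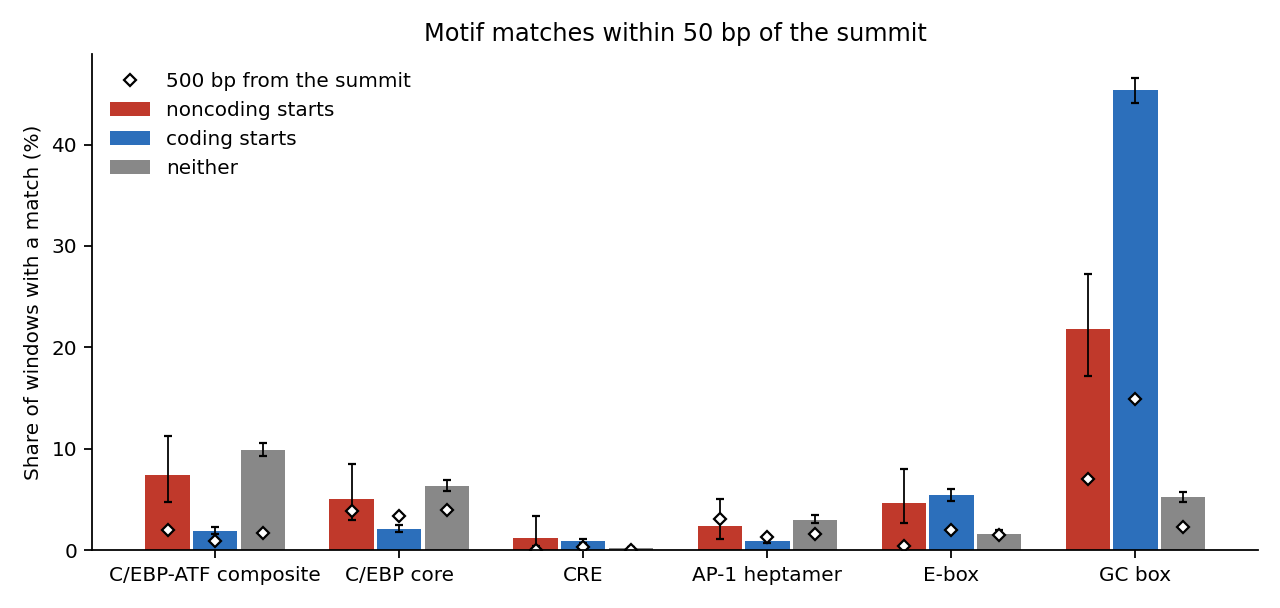
Share of windows with a match in percent (vertical axis) for 6 motifs (horizontal axis) within 50 bp of the summit, for peaks at noncoding starts, at coding starts and at neither, with 95% Wilson intervals as bars. Diamonds give the same share in windows 500 bp away. The composite element is in 7.39% and the GC box in 21.8% of the noncoding class, each between the other classes.

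Named noncoding genes were read from 5 lists with 53 genes found in the annotation among the 6 types. Of these, 13 had a peak under the rule, 4 had a peak within 1 kb of their start that was also near a coding start, and 36 had none within 1 kb. The 17 with any such peak were 32.1% of the list, beside 9.49% of all noncoding genes. Under the rule itself the share over all noncoding genes was 2.54%. The genes were chosen for being known, and known genes differ from the rest in more than CHOP binding. The lists were also drawn up with earlier results of these data known, so the difference is a description only.

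Nuclear and growth-linked RNAs had a peak under the rule in 5 of 9. Apart from Trp53cor1 these were 2900097C17Rik at 12.4-fold (7.64 to 19.3), Lncpint at 10.8-fold (6.97 to 16.2), Tug1 at 7.88-fold (4.15 to 13.9) and Neat1 at 7.50-fold (3.84 to 13.6). 2900097C17Rik is the mouse Norad gene, whose RNA binds PUMILIO proteins. Lncpint, an RNA induced by p53, had a second peak of 4.50-fold. The Neat1 summit was 535 bp upstream of its start, on the side of the divergent Frmd8os, and is the peak with the cyclic AMP response element shown above. Malat1, the abundant speckle RNA next to Neat1, had no summit within 1 kb, and the nearest was a 23.6-fold peak 5796 bp away. Miat, Firre and Pvt1 also had none, at distances of 47479, 383101 and 11912 bp.

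Small nucleolar RNA hosts, whose introns carry guides for modifying ribosomal RNA, had a peak under the rule in 5 of 17. Snhg5 was the highest at 11.9-fold (7.32 to 18.5, 18 reads), followed by Snhg15 at 8.12-fold (4.50 to 13.7), Snhg20 at 5.89-fold (2.91 to 11.0), Dancr at 4.76-fold (2.58 to 8.21) and Snhg8 at 4.50-fold (1.97 to 9.50). The interval of Snhg5 overlaps those of Snhg15, Snhg20, Dancr and Snhg8. A further 4, Gas5 (5.28-fold), Snhg3 (4.52-fold), Snhg10 (6.60-fold) and Zfas1 (4.71-fold), had a peak that was also near a coding start. None of these 4 exceeded 10-fold.

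MicroRNA hosts on the list had a peak in 2 of 10. Mir17hg, the primary transcript of the miR-17-92 cluster, had a 9.24-fold peak (5.67 to 14.3) with its summit 767 bp upstream of the start, and Mir155hg had a 5.71-fold peak (3.23 to 9.47) 244 bp downstream. For Mir22hg, whose microRNA is abundant in liver, the nearest summit was 4690 bp away at 18.1-fold. Of the imprinted and X-inactivation genes 1 of 11 had a peak, Ftx at 5.24-fold (2.50 to 10.1, 7 reads). H19, Kcnq1ot1, Airn, Meg3, Rian, Peg13, Nespas, Xist, Tsix and Jpx had none, with the nearest summits at 7461 bp (Airn) or more. Of 6 liver-linked antisense and other RNAs none had a peak, and the nearest summit to Hnf4aos, antisense to the hepatocyte factor gene Hnf4a, was 2271 bp away at 4.50-fold. With 2.54% of all noncoding genes having a peak under the rule, lists of 6 and 11 genes are too short to show a lack of peaks.

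**Figure D5:**
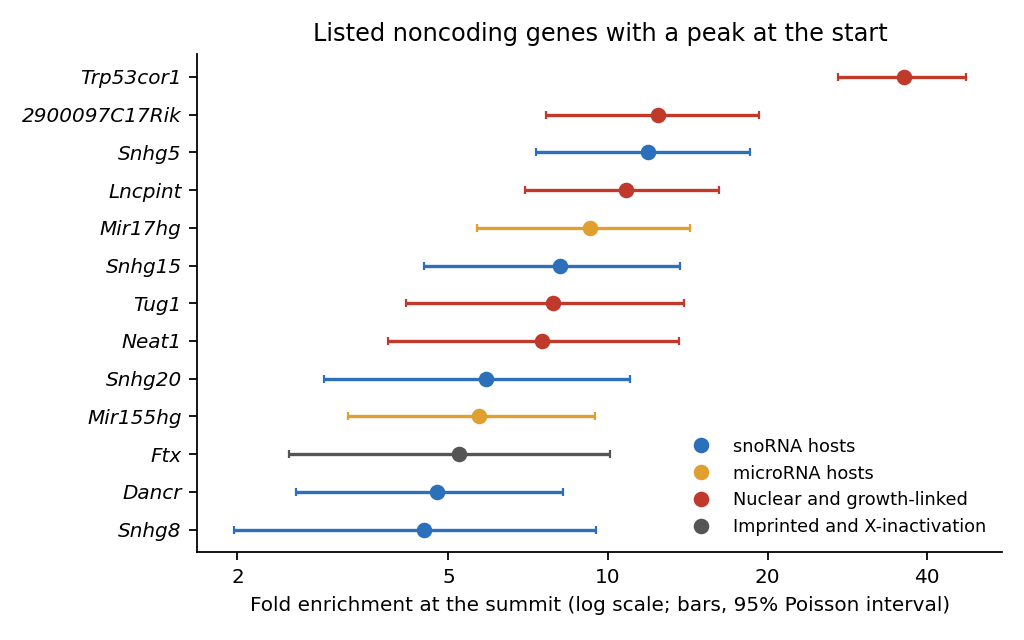
Fold enrichment at the summit (horizontal axis, log scale) for the 13 listed genes with a peak at the start, with 95% Poisson intervals of the pileup as bars and colour by list. Trp53cor1 stands apart at 36.2-fold, and the intervals of the other 12 genes, from 4.50 to 12.4-fold, overlap widely.

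Across the annotation, 180 noncoding genes of the 6 types, some of them listed above, contained a microRNA or small nucleolar RNA on the same strand. Of these 26 (14.4%, 95% interval 10.1 to 20.3%) had a peak under the rule, beside 2.54% of all such noncoding genes. The 26 include listed genes such as Snhg5, Mir17hg and Ftx, so this share partly recounts the lists. Zswim6, which has a messenger RNA start in RefSeq, is also among them. The share was 15.5% for microRNA hosts (18 of 116, 10 to 23.2%) and 12.7% for small nucleolar RNA hosts (9 of 71, 6.81 to 22.4%). A host and its small RNAs are transcribed together, but a peak at the host's start does not measure the level of either. The mature microRNAs of 5 hosts are shown 5′ to 3′ because several share a seed, the bases 2 to 8 that pair with targets, given in capitals (RefSeq, GRCm38.p6).
miR-15a-5p (host Dleu2): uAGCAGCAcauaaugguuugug
miR-16-5p (host Dleu2): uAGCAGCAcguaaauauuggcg
miR-29b-3p (host A330023F24Rik): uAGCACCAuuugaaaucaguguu
miR-29c-3p (host A330023F24Rik): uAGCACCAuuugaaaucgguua
miR-132-3p (host 1700016P03Rik): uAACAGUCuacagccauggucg
miR-212-3p (host 1700016P03Rik): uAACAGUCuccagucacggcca
let-7a-5p (host 6720427I07Rik): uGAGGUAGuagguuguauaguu
let-7d-5p (host 6720427I07Rik): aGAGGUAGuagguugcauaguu
let-7f-5p (host 6720427I07Rik): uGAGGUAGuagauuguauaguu
let-7b-5p (host Lncppara): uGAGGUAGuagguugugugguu
let-7c-5p (host Lncppara): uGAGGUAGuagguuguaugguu
Dleu2, the host of miR-15a and miR-16, which restrain the cell cycle, had the strongest of these peaks. It was 29.0-fold (22.2 to 37.3, 59 reads), 1519 bp wide and at 0 bp from an annotated start, and a second peak of 4.74-fold lay at an internal start 16356 bp from the nearer microRNA. A330023F24Rik, host of miR-29b and miR-29c, regulators of collagen messengers, had a 14.2-fold peak (9.94 to 19.8) 60567 bp from the microRNAs. E130102H24Rik, host of miR-101a, had a 10.1-fold peak (6.53 to 14.9). The 2 let-7 hosts, 6720427I07Rik and Lncppara, had weak peaks of 4.82-fold (2.30 to 9.29) and 4.52-fold (2.24 to 8.42), on different chromosomes. At 1700016P03Rik the summit of the 5.18-fold peak (2.73 to 9.14) lay inside the Mir212 gene itself (chr11:75173388-75173478). In all, 3 members had their summit inside an annotated small RNA, namely 1700016P03Rik, 2410006H16Rik and Gm29264. RefSeq entries were matched for 26 of the 31 microRNA genes in these hosts.

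The rule set a lower limit of 1 kb on the distance to a coding start, so these distances are a description. The median distance to the nearest coding start was 20146 bp, with 36 peaks at 1 to 2 kb, 52 up to 10 kb, 137 from 10 to 100 kb and 32 beyond. A total of 65.8% (95% interval 59.8 to 71.3%) lay more than 10 kb away, against 70.2% of peaks at neither kind of start (69.2 to 71.2%). The nearest coding gene was transcribed divergently in 92 (35.8%), of which 29 were within 5 kb. That gene had a promoter peak of its own in 124 cases (48.2%, 42.2 to 54.3%), against 44.9% for peaks at neither kind of start, a difference within the interval. Another CHOP peak lay within 5 kb of 75 members (29.2%). No share over other peaks is given beside this count or the divergent one, so neither is shown as particular to these peaks.

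Further pairs, named here after their values were seen, were the following. Gm20402, antisense to Foxo1, the insulin-responsive transcription factor, had an 11.2-fold peak (6.94 to 17.1) 1504 bp from the Foxo1 start, where a 24.7-fold peak lay. Lockd, an RNA downstream of the cell cycle inhibitor gene Cdkn1b, had a 10.5-fold peak (5.94 to 17.4) with a composite element, 7813 bp from Cdkn1b, whose promoter peak was 6.13-fold. 4931413I07Rik had a 9.85-fold peak (5.57 to 16.3) 3328 bp from Angptl4, which encodes an inhibitor of lipoprotein lipase and had no promoter peak. Each of these noncoding peaks rested on 13 to 19 reads.

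The class depends on what the annotation calls coding. In the RefSeq annotation 24 of the 257 peaks (9.34%) were within 1 kb of a messenger RNA start. The strongest of these, at Gm8066, was 43 bp from the start of Gigyf1, and others were at the starts of Spata5l1 and Zswim6, which M21 lists as noncoding. Gm16348 lay 479 bp from a RefSeq start of Fgl1, a protein secreted by hepatocytes, and Sp3os 365 bp from Sp3. None of the 24 held a composite element, and their median GC content was 76.2%.

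At the edges of the rule, the members nearest the noncoding limit were Gm13091 at 996 bp (5.75-fold), Gm45081 at 987 bp (4.97-fold) and Gm13522 at 986 bp (4.06-fold). The first peaks outside it were at 1001, 1003 and 1053 bp, of 8.25-, 5.25- and 11.4-fold. The members closest to a coding start were Gm48488 at 1006 bp (4.46-fold), Gm45609 at 1019 bp (9.0-fold) and Gm4221 at 1050 bp (5.47-fold). The nearest peaks left out for a coding start were at 972, 972 and 971 bp, of 9.64-, 19.4- and 6.65-fold.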

How the data were processed

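Coordinates and values came from the CHOP peak list of 1 immunoprecipitated library (3 pooled livers). Per the labels' protocols, the authors aligned single-end reads to mm10 with Bowtie (at most 2 mismatches), discarded reads seen more than 2 times at 1 place on a strand, and called peaks with MACS2 2.1.2 at default settings after SAMtools 1.9 and Sambamba 0.7.1. The deposited columns are a score, a fold (a ratio of pileup to background), −log10 p, −log10 q and the summit offset. The score, equal to a scaled −log10 q, was not used further.

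The whole-number pileup and background were solved from fold and −log10 p for all 14157 peaks (largest residual 3.13e-05). Library depth: not given in the sources used here. Shares have 95% Wilson intervals and medians order-statistic intervals. These treat peaks as independent and cover no spread between mice. Motifs were matched on both strands within 50 bp of the summit and in an equal window 500 bp away on alternating sides. GRCm38.p6 sequence, GENCODE M21 and, as an alternative, RefSeq were used with Python 3.11.15, numpy 2.4.6, pandas 2.3.3, scipy 1.17.1 and matplotlib 3.10.9. The scripts were tested on simulated data.

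Named peaks are those at listed genes, the 20 of highest fold, the 4 highest of each gene type and motif, the 3 widest, the 3 with most reads and the 3 on each side of each limit. The members and lists were chosen with earlier results of these data known. With 1 library, no test between groups was made.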

Additional observations from a re-analysis of the deposited data

How the results depend on the processing

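No paired analysis was possible because the list holds 1 immunoprecipitated library and no replicate to pair it with. Of 95 alternative values, 89 stayed within the main interval or, for counts, within 1.5 times the main count, and 6 moved. The median fold of 6.75 became 8.01 at a −log10 q of at least 5 and 7.34 at a fold of at least 5, and the share at 10-fold or more rose from 22.6% to 31.9% at that q, since both filters remove weak peaks. Limiting distance to 500 bp lowered the median distance from 250.0 to 150.0 bp, and asking for more than 2 kb from coding starts raised the share beyond 10 kb from 65.8% to 76.5%, both by construction. Within 250 bp of the summit the median GC content was 56.3% instead of 59.4%. Leaving out peaks near RefSeq messenger starts, an alternative chosen after seeing the data, moved none of the 9 results. Low read counts limit single peaks: 123 of 257 rested on 10 reads or fewer.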
